A study of Mus musculus with 9 samples.

Results

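The genes described here are 40 DNA repair and DNA damage response genes, chosen by name. They are grouped by the repair pathway in which their proteins act, apart from Ercc6l2, which is grouped by protein family. The 40 are part of the 55401 genes counted in the series. All 40 were found by gene symbol, and all 40 held more than the 50 counts over the 9 libraries that the choice required. Their summed counts ran from 191 for Chek2 to 33138 for Trp53bp1, and all 40 passed the filter on low counts and were tested.

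RNA was sequenced from nuclei carrying the neuronal protein NeuN, sorted from mouse cortex. The 9 libraries formed 3 groups of 3. One group came from P301S tau transgenic mice treated with the Cdk5i peptide, one from P301S tau transgenic mice treated with a scrambled (scrmb) peptide, and one from untreated wild-type mice. Both peptides were injected into the abdomen every other day at 20 mg per kg body weight, and all animals were aged 7 to 9 months. P301S is a mutation of tau that causes an inherited tauopathy in humans, and Cdk5i is a peptide meant to inhibit Cdk5, a kinase that phosphorylates tau. The labels do not name the transgenic line or the promoter of its transgene. Wild-type mice were not injected, so the effects of genotype and of injection cannot be told apart wherever wild type is the baseline. Whether the libraries of a group stem from different animals is not stated, and p-values therefore reflect a spread that may be technical.

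DNA repair is divided among pathways that each take a kind of lesion. Nucleotide excision repair removes bulky lesions either anywhere in the genome or, in its transcription-coupled branch, where RNA polymerase has stalled, and base excision repair replaces oxidised or lost bases and seals nicks. Breaks of both strands are sensed by the Mre11, Rad50 and Nbn complex and signalled by the kinases Atm and Atr. They are joined end to end, or copied from a sister chromatid by homologous recombination, which needs a replicated genome and is thus a pathway of dividing cells. Neurons do not divide, so they rely on excision repair and end joining.

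Library totals ran from 21584712 to 26715938 counts. The neuronal marker Rbfox3, which encodes NeuN, measured 1106 to 1558 CPM (counts scaled to library size, with TMM factors) over the 9 libraries. It averaged 1401 CPM with Cdk5i, 1293 CPM with the scrambled peptide and 1184 CPM in wild type, and Syt1 averaged 3358, 3234 and 3693 CPM. The sums of 8 neuronal markers were 6472 ± 656 CPM with Cdk5i and 6185 ± 353 CPM with the scrambled peptide (SD, n = 3 each). In wild type this sum was 6488 ± 319 CPM (SD, n = 3). Against wild type, 5 of the 8 had positive log2 fold changes with Cdk5i and 4 of the 8 with the scrambled peptide. None passed the edgeR test. The 10 markers of dividing cells summed to 4.76 to 7.07 CPM. Of these, Pcna, Mcm6, Mcm5 and Mcm2 averaged 1.83, 1.68, 1.42 and 0.777 CPM over the 9 libraries, and Mki67 averaged 0.167 CPM. Top2a, Mcm3, Ccnb1, Cdk1 and Aurkb averaged 0.0184 to 0.0654 CPM. The 9 oligodendrocyte markers summed to 101 ± 22.6 CPM in Cdk5i libraries, 100 ± 14.1 CPM in scrambled-peptide libraries and 79.3 ± 4.91 CPM in wild-type libraries (SD, n = 3 each). Most of this sum came from Mbp, with a mean of 74.1 CPM over the 9 libraries.

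The repair genes were expressed at ordinary levels for these nuclei. Per kilobase of gene, the median member measured 0.508 CPM, against 0.548 CPM over all 16046 genes tested, and 18 of the 40 lay above that median. Polb, the polymerase that fills the gap in base excision repair, was highest at 3.12 CPM per kb, with a range of 2.95 to 3.26 over the 9 libraries. It did not overlap Trp53bp1 (1.88 to 2.10 CPM per kb), a chromatin protein that gathers at breaks, which came next. Trp53bp1 did overlap the break sensor and poly(ADP-ribose) polymerase Parp1 (1.82 to 2.04 CPM per kb). Trp53bp1 also overlapped Ddb1 (1.68 to 1.92), which is part of a lesion recognition complex. The range of the transcription-coupled repair ATPase Ercc6 (1.74 to 1.88) met that of Trp53bp1 only at its end. The lowest 3 were Fancd2 of crosslink repair (0.0466 CPM per kb), the checkpoint kinase Chek2 (0.0262) and Brca1 of homologous recombination (0.0231), and their ranges over the libraries overlapped in part. The read pairs count exons and introns together, so these are levels per length of the whole gene.

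**Figure D1:**
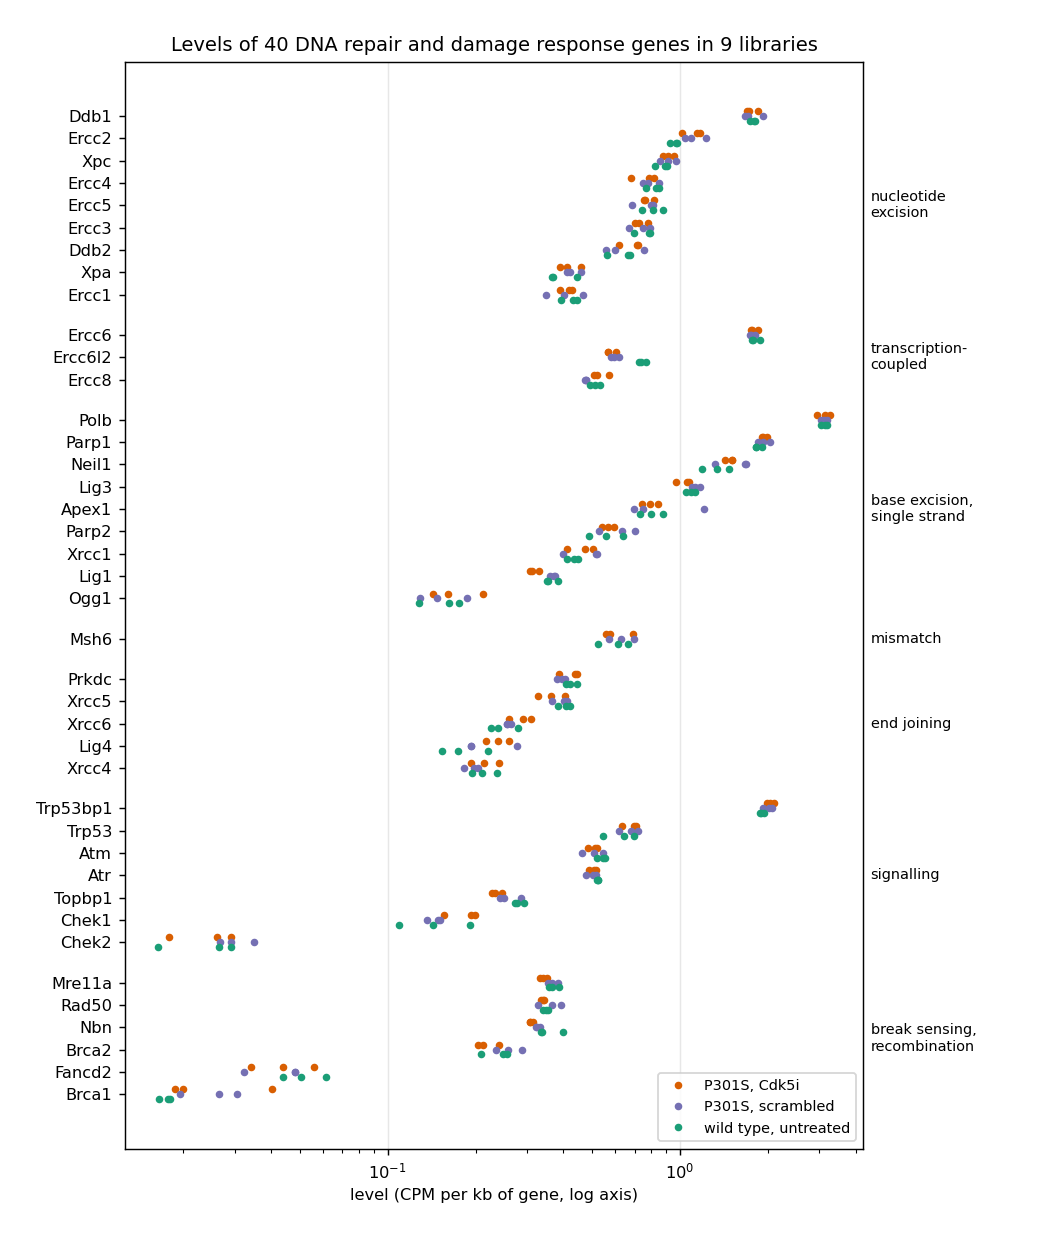
Levels of the 40 repair genes (CPM per kb of gene, log axis), 1 point per library, grouped by pathway and ordered by level within each pathway. Levels span from 0.0231 CPM per kb for Brca1 to 3.12 CPM per kb for Polb, and the wild-type points of Ercc6l2 stand apart to the right of its 6 P301S points.

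Across the 3 comparisons 1 member passed the test, in a call that was lost in 12 of 14 alternative settings. Ercc6l2 was lower with Cdk5i than in wild type, and the scrambled peptide gave nearly the same difference without passing. No other member passed the edgeR quasi-likelihood test with Benjamini-Hochberg adjustment over 16046 genes. Of all genes tested, 0.0125% passed for Cdk5i against scrambled peptide, 0.081% for scrambled peptide against wild type, and 0.0748% when Cdk5i was set against wild type. The corresponding counts among the 40 members were 0, 0 and 1. Before adjustment, edgeR gave p under 0.05 to 1 member (Lig1), 2 members (Ercc2 and Ercc6l2) and 4 members (Ercc2, Ercc6l2, Lig1 and Topbp1), against 5.33%, 10.1% and 11.0% of all genes, which is 2.5%, 5% and 10% of the members. Each of these shares is below that of all genes. Between the peptides DESeq2 and limma-voom also called 0 members.

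The members' fold changes were centred on 0. The median log2 fold change over the 40 was -0.00 for Cdk5i against scrambled peptide, 0.00 for scrambled peptide against wild type and -0.01 when Cdk5i was compared with wild type. Over all genes these medians were -0.01, 0.01 and -0.01. Members ran from -0.31 to 0.33, from -0.31 to 0.55 and from -0.36 to 0.58 in the same order. For 31 of the 40 members the 95% interval of the log2 fold change lay within -0.5 to 0.5 in all 3 comparisons, so larger changes of these genes lie outside their intervals. The ratio of the highest to the lowest of the 9 libraries had a median of 1.29 and stayed under 1.5 for 33 members. It passed 2 for Chek2 (2.11) and Brca1 (2.44), which are among the members with the fewest counts. The summed level of the 40 genes was 1154 ± 23.6 CPM with Cdk5i, 1150 ± 6.39 CPM with the scrambled peptide and 1166 ± 11.0 CPM in the wild-type libraries (SD, n = 3 each). In such bulk samples, fewer cells of a type and less RNA per cell cannot be told apart.

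**Figure D2:**
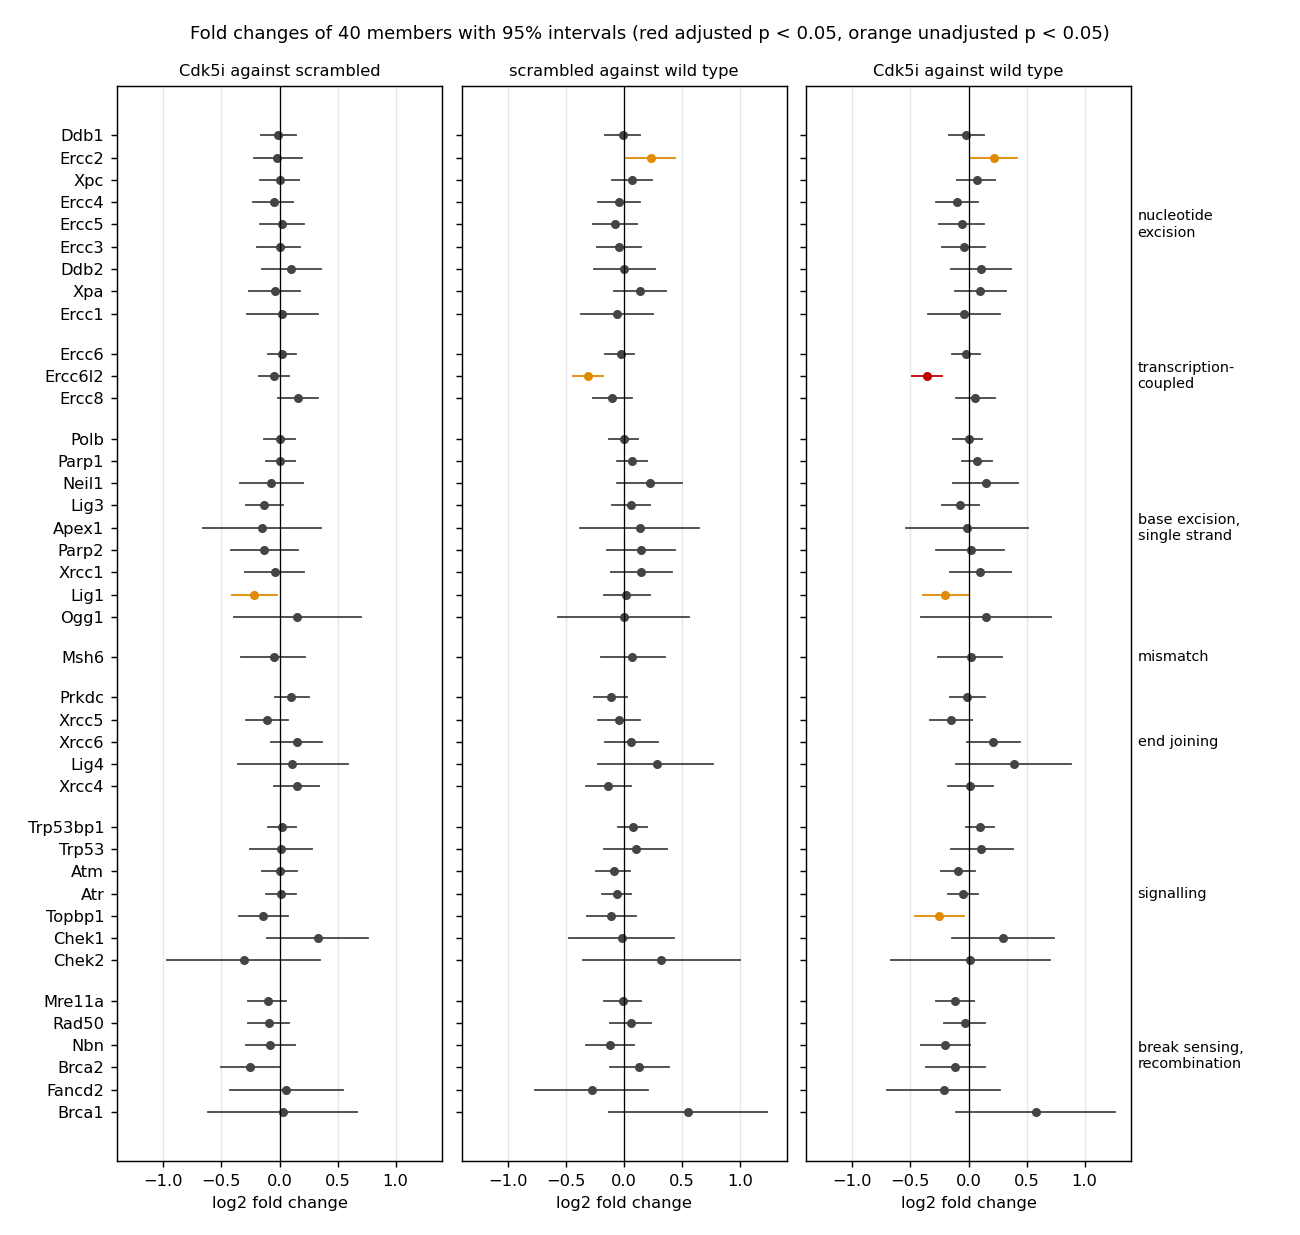
Log2 fold changes of the 40 repair genes with 95% intervals in the 3 comparisons, by pathway. The single red point is Ercc6l2 for Cdk5i against wild type, at -0.36; most other intervals cross 0.

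Nucleotide excision repair, leaving aside Ercc6 and Ercc8 of its transcription-coupled branch, is represented by 9 members. None of the 9 passed the edgeR test in any comparison. They include the damage recognition factors Xpc, Ddb1 and Ddb2, the scaffold Xpa and the incision factors Ercc1, Ercc4 and Ercc5. They also include the helicases Ercc2 (XPD) and Ercc3 (XPB) of the transcription factor TFIIH. Their summed level was 201 ± 3.13 CPM with Cdk5i, 202 ± 5.64 CPM with the scrambled peptide and 200 ± 1.69 CPM in the wild-type libraries (SD, n = 3 each). Their log2 fold changes spanned -0.05 to 0.10 for Cdk5i against scrambled peptide, -0.08 to 0.23 for scrambled peptide against wild type and -0.10 to 0.22 when Cdk5i was compared with wild type.

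Ddb1 was the highest of these genes per kilobase. It measured 42.2, 45.4 and 41.7 CPM in the Cdk5i libraries, 41.8, 47.1 and 41.1 CPM in the scrambled-peptide libraries and 42.5, 44.3 and 44.0 CPM in the wild-type libraries. The 3 groups overlapped. Its log2 fold change was -0.02 for Cdk5i against wild type (95% interval -0.17 to 0.13) and -0.01 for Cdk5i against scrambled peptide (-0.16 to 0.14).

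Ercc2 (chromosome 7, 19382010 to 19395694, plus strand, GRCm38) measured 16.1, 15.7 and 13.9 CPM with Cdk5i, 15.0, 16.9 and 14.3 CPM with the scrambled peptide and 13.3, 13.4 and 12.7 CPM in wild type. Each of the 6 P301S libraries lay above each of the 3 wild-type libraries, while the peptide groups overlapped. The log2 fold change was 0.22 for Cdk5i against wild type (SE 0.10, edgeR adjusted p = 0.441). For scrambled peptide against wild type it was 0.23 (SE 0.10, edgeR adjusted p = 0.448). Neither passed the test over all genes. The other helicase of TFIIH, Ercc3, had log2 fold changes of -0.04 against wild type with either peptide.

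Of the 40 members, Ercc2 and Brca1 had all 6 P301S libraries above the 3 wild-type libraries, as did 3.22% of all genes. Ercc6l2, Atr and Nbn had all 6 below, as did 3.28% of all genes.

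Transcription-coupled repair is represented by Ercc6 (CSB), the ATPase that binds the stalled polymerase, and by Ercc8 (CSA), the adaptor of the ubiquitin ligase recruited there. Ercc6l2 is grouped with them by its protein family. Ercc6l2 encodes an ATPase of the same SNF2 family as CSB that has been placed in end joining in mouse B cells, and its loss causes bone marrow failure in humans. The gene (ENSMUSG00000021470) lies on the plus strand of chromosome 13 at 63815240 to 63900302 (GRCm38), a length of 85063 bases. Only 1.42% of that length overlaps another gene on the same strand, Gm47424. Ercc6 (ENSMUSG00000054051) lies on the plus strand of chromosome 14 at 32513521 to 32580990.

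Given here are the 250 bases before the start of Ercc6l2, the member that passed the test, and of its relative Ercc6, which did not. They come from RefSeq (GRCm38.p6, plus strand, chr13:63814990-63815239 and chr14:32513271-32513520). The motifs searched, on both strands, were the GC box GGGCGG, the CCAAT box CCAAT, the ETS motif CCGGAAG and the E-box CACGTG, and capitals mark their matches, none of which overlap.
Ercc6l2: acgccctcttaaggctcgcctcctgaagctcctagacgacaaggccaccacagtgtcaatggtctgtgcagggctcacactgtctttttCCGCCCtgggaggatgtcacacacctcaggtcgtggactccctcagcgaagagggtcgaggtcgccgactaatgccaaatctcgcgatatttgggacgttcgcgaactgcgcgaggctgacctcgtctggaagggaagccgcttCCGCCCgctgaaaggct
Ercc6: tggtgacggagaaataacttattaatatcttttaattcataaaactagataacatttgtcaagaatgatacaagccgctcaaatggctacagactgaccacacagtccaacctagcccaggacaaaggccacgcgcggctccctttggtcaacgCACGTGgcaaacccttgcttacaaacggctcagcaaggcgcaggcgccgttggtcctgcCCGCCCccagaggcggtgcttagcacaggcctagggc

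The share of G and C was 59.6% for Ercc6l2, with 20 CpG pairs, and 52.4% for Ercc6, with 13, while the medians of all promoters were 52.4% and 6 CpG pairs. Ercc6l2 has 2 GC boxes, and Ercc6 has 1 GC box and 1 E-box. A GC box was found in 18 of the 32 members with a RefSeq promoter entry (56.2%) and in 32.7% of the 32851 promoters of the same length. The E-box was found in 21.9% of the members and 6.02% of all promoters, the CCAAT box in 46.9% and 33.8%, and the ETS motif in 12.5% and 6.91%. Such matches are letters in a window and not sites that were shown to be bound. The 2 sets are unlike: members count 1 promoter each and were all expressed here. The 32851 take in every entry, whether or not its gene was expressed.

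Ercc6l2 measured 51.3, 48.4 and 48.3 CPM in the Cdk5i libraries, 52.8, 50.8 and 49.5 CPM in the scrambled-peptide libraries and 65.0, 62.7 and 61.9 CPM in the wild-type libraries. The 6 P301S libraries lay close together and all of them lay below the wild-type libraries, with a gap wider than the range within any group. With Cdk5i the level was 0.780 times that of wild type, a log2 fold change of -0.36 with a 95% interval of -0.49 to -0.23 (SE 0.06, edgeR adjusted p = 0.0483). Among all genes, 0.0312% passed as lower in this comparison.

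Scrambled peptide gave a difference from wild type of nearly the same size that did not pass the edgeR test. There the level was 0.807 times that of wild type, a log2 fold change of -0.31 with a 95% interval of -0.44 to -0.18 (edgeR adjusted p = 0.124). Between the peptides the log2 fold change was -0.05 with an interval of -0.18 to 0.08 (edgeR adjusted p = 0.970), and the groups overlapped. With both P301S groups averaged against wild type, a contrast chosen after the data were seen, the log2 fold change was -0.33 (95% interval -0.44 to -0.23), with an edgeR adjusted p of 0.028. This contrast called 13 genes in all (0.081%), and Ercc6l2 was the 1 member among them. The 2 comparisons with wild type share the wild-type libraries, so they do not support each other.

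The call rested on a narrow margin. With each of the 6 Cdk5i and wild-type libraries left out in turn, the log2 fold change stayed between -0.39 and -0.34 while the edgeR adjusted p rose to 0.0793 to 0.256, so that the call was lost without any 1 of them. Over the 14 alternative settings the log2 fold change ran from -0.39 to -0.34 and the adjusted p from 0.00149 with DESeq2 to 0.256, with 2 of the 14 passing. For scrambled peptide against wild type 2 of 14 alternatives passed as well, with the adjusted p running from 0.00993 with DESeq2 to 0.465. The oligodendrocyte marker sum was higher on average in the P301S groups, at 78.4 to 123 CPM with Cdk5i, 84.1 to 111 CPM with the scrambled peptide and 74.0 to 83.7 CPM in wild type. Of its 9 markers 7 could be tested, 0 passed the edgeR test and 0 were at 0 in all libraries. All 7 had positive log2 fold changes for scrambled peptide against wild type (median 0.32, 3 with an edgeR p under 0.05 before adjustment), 5 of the 7 for Cdk5i against wild type (median 0.30) and 1 of the 7 for Cdk5i against scrambled peptide (median -0.29). The sum of 6 astrocyte markers was lower on average in the P301S groups, at 351 to 518 CPM with Cdk5i, 399 to 516 CPM with the scrambled peptide and 468 to 550 CPM in wild type. Most of that sum came from Slc1a2, with a mean of 454 CPM over the 9 libraries. Of the 6 markers, 4 had a negative and 2 a positive log2 fold change in each comparison with wild type. The medians were -0.26 for scrambled peptide and -0.18 for Cdk5i. None of those 6 passed the edgeR test, and 0 were at 0 in all libraries. The part of either list in the result for Ercc6l2 was not tested.

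**Figure D3:**
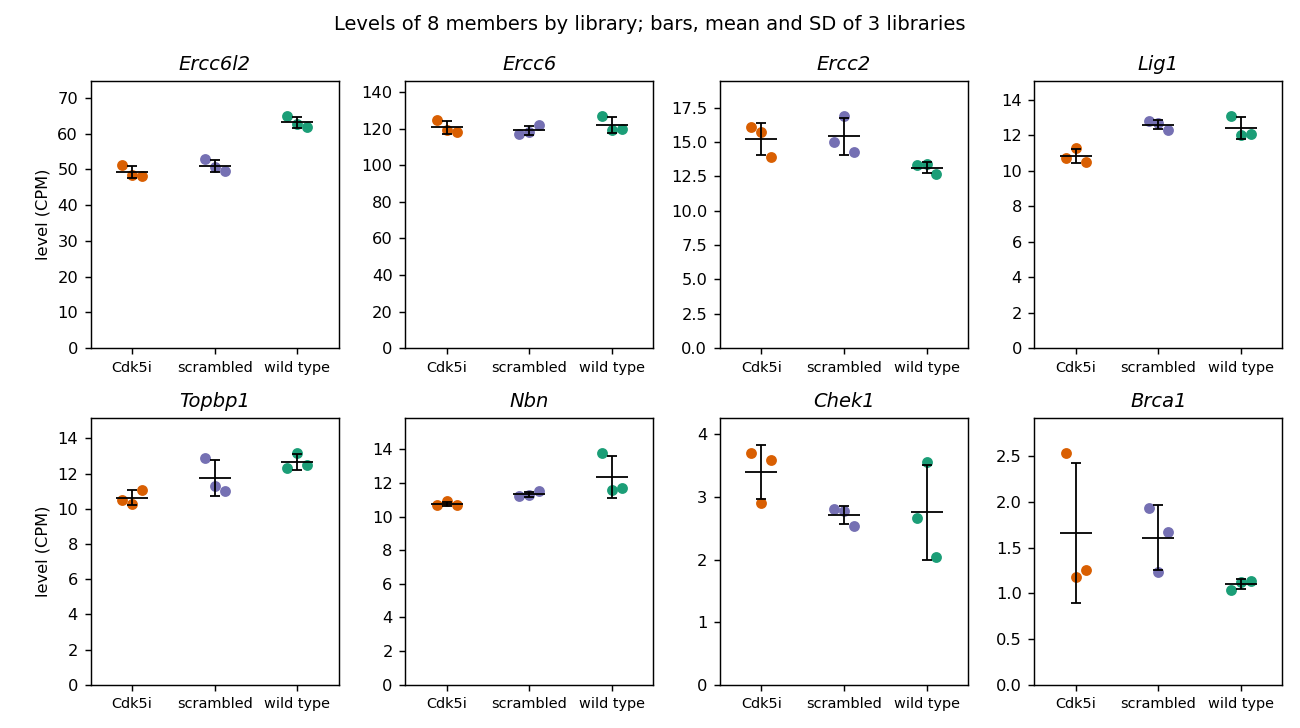
Levels (CPM) of 8 members by library, with the mean and SD of 3 libraries per group; each axis starts at 0. The 6 P301S libraries of Ercc6l2 lie at 48.3 to 52.8 CPM and its wild-type libraries at 61.9 to 65.0 CPM, while the groups of Ercc6 overlap.

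Ercc6, the nearest relative of Ercc6l2 in the list, measured 125, 119 and 118 CPM with Cdk5i, 117, 118 and 122 CPM with the scrambled peptide and 127, 119 and 120 CPM in wild type. The 3 groups overlapped. Its log2 fold change for Cdk5i against wild type was -0.02 with an interval of -0.14 to 0.10, which leaves out the size seen for Ercc6l2. Ercc8 measured 19.0, 18.6 and 21.0 CPM with Cdk5i, 17.5, 17.4 and 17.5 CPM with the scrambled peptide and 18.1, 19.5 and 18.7 CPM in wild type. The scrambled-peptide libraries of Ercc8 lay below those of either other group, without passing the test (edgeR adjusted p = 0.933 against Cdk5i and 0.718 against wild type).

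No gene near Ercc6l2 passed the test. Within 500 kb on each side, 9 other genes were tested and 0 passed the edgeR test in any comparison. For Cdk5i against wild type 5 of the 9 had a positive log2 fold change, among them Ptch1, the Hedgehog receptor, with 0.25 (edgeR adjusted p = 0.389). Zfp367, a zinc finger gene, had the most negative at -0.46 (edgeR adjusted p = 0.386), on a mean of 76.6 counts per library. Fancc, a gene of the Fanconi anaemia core complex for crosslink repair on the opposite strand, had -0.10 (edgeR adjusted p = 0.619).

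**Figure D4:**
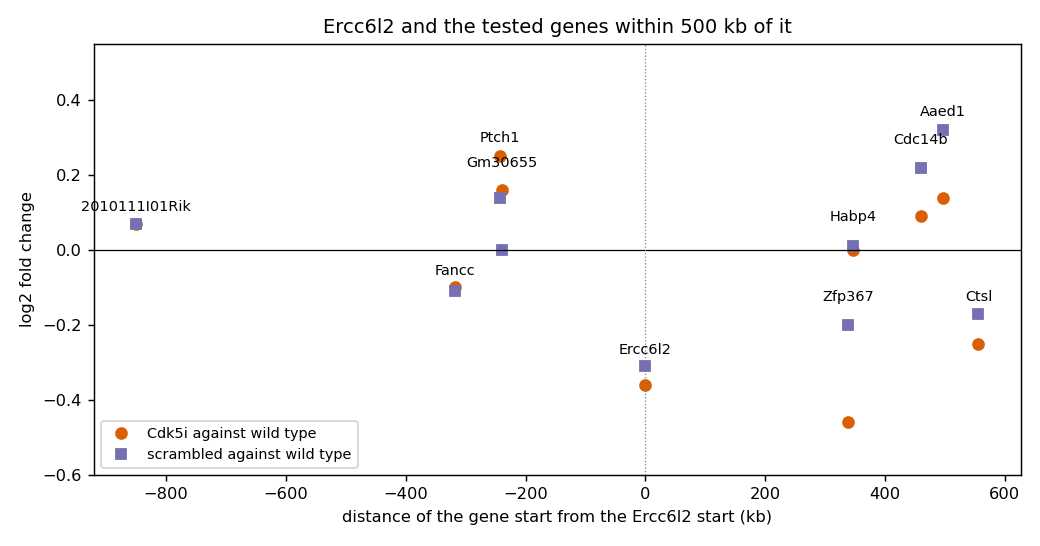
Log2 fold changes of Ercc6l2 and of the 9 tested genes that reach within 500 kb of it, by distance between gene starts (kb). Ercc6l2 lies at -0.36 for Cdk5i against wild type and -0.31 for scrambled peptide against wild type, and its neighbours lie on both sides of 0.

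Base excision and single-strand break repair is represented by 9 members and 0 passed the edgeR test. They are the glycosylases Ogg1 and Neil1, which cut out oxidised bases, the endonuclease Apex1, the polymerase Polb, the scaffold Xrcc1, the ligases Lig1 and Lig3, and the nick sensors Parp1 and Parp2. Their sum was 208 ± 2.26 CPM with Cdk5i, 214 ± 7.89 CPM with the scrambled peptide and 206 ± 1.30 CPM in the wild-type libraries (SD, n = 3 each). For Cdk5i against scrambled peptide 7 of the 9 had a negative log2 fold change, with a median of -0.07, and for scrambled peptide against wild type 7 of the 9 had a positive one, with a median of 0.07. The scrambled-peptide libraries are in both of these comparisons. Polb measured 82.4, 79.4 and 74.7 CPM with Cdk5i, 80.8, 77.1 and 78.7 CPM with the scrambled peptide and 76.9, 79.5 and 80.9 CPM in wild type. Its groups overlapped, and its 95% intervals lay within -0.13 to 0.13 on the log2 scale in each comparison.

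Lig1, the DNA ligase that also joins fragments of the lagging strand during replication, measured 10.7, 11.3 and 10.5 CPM with Cdk5i, 12.8, 12.7 and 12.3 CPM with the scrambled peptide and 13.1, 12 and 12.1 CPM in wild type. The 3 Cdk5i libraries lay below all 6 others. The log2 fold change of Lig1 was -0.22 against scrambled peptide (95% interval -0.41 to -0.02, edgeR adjusted p = 0.922) and -0.20 against wild type (edgeR adjusted p = 0.451), so it passed neither test. The oxidised-base glycosylase Neil1 lay at 7.86 to 8.34 CPM with Cdk5i, 7.30 to 9.25 CPM with the scrambled peptide and 6.58 to 8.15 CPM in wild type, and these groups overlapped. Lig3, the ligase partner of Xrcc1, averaged 24.0 ± 1.27 CPM with Cdk5i and 26.3 ± 0.915 CPM with the scrambled peptide (SD, n = 3 each), and these groups did not overlap. The difference of -0.13 on the log2 scale did not pass (edgeR adjusted p = 0.945). Parp1 was the other member of this group whose Cdk5i and wild-type libraries did not overlap, at 61.9 to 64.2 CPM with Cdk5i and 58.7 to 61.8 CPM in wild type, a difference of 0.07 on the log2 scale (edgeR adjusted p = 0.704).

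Mismatch repair is represented by Msh6, a subunit of a complex that recognises mispaired bases. It measured 9.11, 8.84 and 10.9 CPM with Cdk5i, 11.0, 9.04 and 9.96 CPM with the scrambled peptide and 9.72, 8.29 and 10.5 CPM in wild type, and the groups overlapped. Between Cdk5i and scrambled peptide the log2 fold change was -0.05, with an interval of -0.33 to 0.22.

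The 5 members grouped under end joining, which leave out Ercc6l2, also gave 0 calls. Xrcc5 (Ku80) and Xrcc6 (Ku70) form the ring that grips a broken end, Prkdc is the kinase it recruits, and Xrcc4 with Lig4 closes the break. Prkdc measured 89.5, 78.6 and 90.7 CPM with Cdk5i, 80.4, 77.8 and 82.6 CPM with the scrambled peptide and 91.1, 83.4 and 85.9 CPM in wild type. The scrambled-peptide libraries lay below the wild-type libraries and overlapped the Cdk5i libraries. Its log2 fold changes were 0.10 for Cdk5i against scrambled peptide (interval -0.04 to 0.25) and -0.11 for scrambled peptide against wild type (interval -0.26 to 0.03). Between the peptides 4 of the 5 genes had a positive log2 fold change, with a median of 0.11, and Xrcc5 had -0.11. Lig4 had the widest intervals of this group, from -0.11 to 0.88 for Cdk5i against wild type, on 399 counts over the 9 libraries. Xrcc6 lay at 13.6 to 16.2 CPM with Cdk5i, 13.4 to 13.8 CPM with the scrambled peptide and 11.8 to 14.6 CPM in wild type, with a log2 fold change for Cdk5i against wild type of 0.21 (interval -0.01 to 0.44).

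Damage signalling is represented by 7 members, with 0 calls. Trp53bp1 (53BP1) measured 155, 159 and 164 CPM with Cdk5i, 150, 158 and 162 CPM with the scrambled peptide and 147, 148 and 152 CPM in wild type. The Cdk5i libraries lay above the wild-type libraries, and the scrambled-peptide libraries overlapped both. The log2 fold change for Cdk5i against wild type was 0.10 (interval -0.02 to 0.22, edgeR adjusted p = 0.559). Trp53, which encodes p53, had 7.82 ± 0.440 CPM with Cdk5i, 7.74 ± 0.561 CPM with the scrambled peptide and 7.22 ± 0.886 CPM in the wild-type libraries (SD, n = 3 each), with overlapping groups.

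The apical kinases Atm and Atr did not pass in any comparison. Atm had a log2 fold change of 0.00 between the peptides (interval -0.15 to 0.15) and of -0.09 against wild type with either peptide. Atr lay at 46.0 to 48.8 CPM with Cdk5i, 45.1 to 48.8 CPM with the scrambled peptide and 49.0 to 49.4 CPM in wild type. Its 6 P301S libraries were thus below the wild-type libraries, by -0.05 and -0.06 on the log2 scale for Cdk5i and scrambled peptide, and neither difference passed (edgeR adjusted p = 0.794 and 0.760).

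Topbp1, which activates Atr at stalled replication forks, measured 10.5, 10.3 and 11.1 CPM with Cdk5i, 12.9, 11.3 and 11.0 CPM with the scrambled peptide and 12.3, 13.2 and 12.5 CPM in wild type. The Cdk5i libraries lay below the wild-type libraries, and the scrambled-peptide libraries overlapped both groups. The log2 fold change for Cdk5i against wild type was -0.25 (interval -0.46 to -0.04, edgeR adjusted p = 0.375). Chek1, the kinase that acts after Atr, measured 3.71, 2.90 and 3.59 CPM with Cdk5i, 2.81, 2.77 and 2.54 CPM with the scrambled peptide and 2.66, 3.56 and 2.04 CPM in wild type. The Cdk5i libraries lay above the scrambled-peptide libraries, and the wild-type libraries overlapped both groups. The log2 fold change between the peptides was 0.33, with an interval of -0.11 to 0.76 (edgeR adjusted p = 0.951). Chek2 had intervals from -0.97 to 0.35 between the peptides and was not measured closely enough to place.

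Break sensing, homologous recombination and crosslink repair is represented by 6 members, again with 0 calls. Their sum lay at 62.4 to 64.3 CPM with Cdk5i, 65.0 to 71.2 CPM with the scrambled peptide and 66.6 to 69.1 CPM in wild type. For Cdk5i against wild type 5 of the 6 had a negative log2 fold change (median -0.12). Against scrambled peptide 4 of the 6 did (median -0.08). The sum was not tested. The sensors Mre11a, Rad50 and Nbn summed to 48.3 ± 0.336 CPM with Cdk5i, 51.5 ± 1.86 CPM with the scrambled peptide and 51.9 ± 0.582 CPM in the wild-type libraries (SD, n = 3 each). Mre11a, the nuclease of this complex, measured 17.9, 17.5 and 18.4 CPM with Cdk5i, 20.1, 19.2 and 18.6 CPM with the scrambled peptide and 18.8, 19.2 and 20.2 CPM in wild type. Its Cdk5i libraries lay below all 6 others, at log2 fold changes of -0.10 against scrambled peptide and -0.12 against wild type (edgeR adjusted p = 0.958 and 0.609).

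Nbn, the subunit that binds Atm, had 10.7, 10.9 and 10.7 CPM with Cdk5i, 11.2, 11.3 and 11.5 CPM with the scrambled peptide and 13.8, 11.6 and 11.7 CPM in wild type. None of its 3 groups overlapped, and wild-type replicate 1 stood above the other 2. Its log2 fold change for Cdk5i against wild type was -0.20 (interval -0.41 to 0.01, edgeR adjusted p = 0.479). Rad50 overlapped in every comparison. In all, 6, 7 and 10 members had groups without overlap for Cdk5i against scrambled peptide, scrambled peptide against wild type and Cdk5i against wild type (15%, 17.5% and 25% of the 40), against 10.3%, 16.3% and 16.3% of all genes.

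Brca1, which loads the recombinase at resected breaks together with Brca2, was the lowest member per kb of gene. It measured 2.54, 1.18 and 1.26 CPM with Cdk5i, 1.93, 1.23 and 1.67 CPM with the scrambled peptide and 1.04, 1.12 and 1.14 CPM in wild type. All 6 P301S libraries lay above the wild-type libraries, and Cdk5i replicate 1 lay far above the other 2 of its group. The log2 fold change was 0.58 for Cdk5i against wild type (interval -0.11 to 1.26, edgeR adjusted p = 0.532) and 0.55 for scrambled peptide against wild type (interval -0.13 to 1.23, edgeR adjusted p = 0.591). Without Cdk5i replicate 1 the first of these was 0.15 (edgeR adjusted p = 0.911, with 0.454 to 0.911 over its 14 alternatives). Brca2 lay at 9.69 to 11.5 CPM with Cdk5i, 11.2 to 13.8 CPM with the scrambled peptide and 9.99 to 12.2 CPM in wild type, and 8.49% of its length overlaps Gm42531 on the same strand. Between the peptides Brca2 had a log2 fold change of -0.25 (interval -0.50 to 0.00, edgeR adjusted p = 0.922). Fancd2, which is switched on by ubiquitin at crosslinks, had overlapping groups in every comparison.

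Gene length went along with part of the spread of the fold changes against wild type. Members span 2.17 kb (Apex1) to 316 kb (Xrcc4), with a median of 34.2 kb. For scrambled peptide against wild type, 13 of the 20 members longer than the median had a negative log2 fold change (median -0.04), and 13 of the 20 shorter members had a positive one (median 0.06). Over all genes split at the same length, 3661 of 6713 longer genes were negative (median -0.02) and 5250 of 9333 shorter genes were positive (median 0.03). Across the 40 members the correlation of log2 fold change with log2 length was -0.40 in this comparison, -0.29 for Cdk5i against wild type and 0.10 for Cdk5i against scrambled peptide. Across the 16046 genes it was -0.13, 0.07 and 0.22. These are descriptions across genes that share their libraries, and genes are not independent replicates. Ercc6l2, at 85.1 kb, is among the longer members, and the part of length in its difference was not tested.

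**Figure D5:**
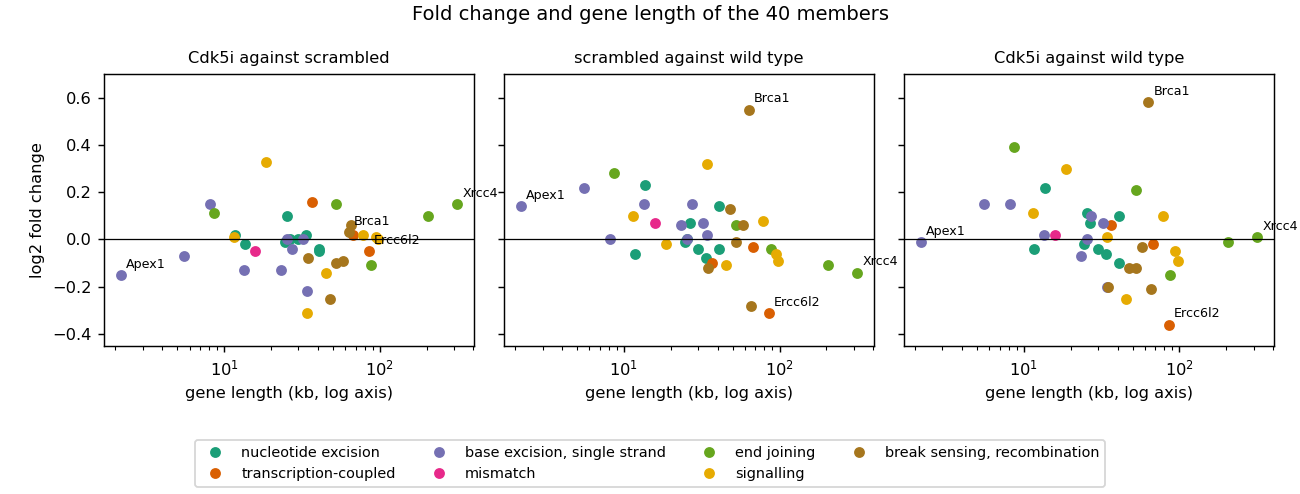
Log2 fold change of the 40 repair genes by gene length (kb, log axis) in the 3 comparisons, coloured by pathway. Longer genes tend to lie lower in the scrambled peptide against wild type panel, where the correlation with log2 length is -0.40, and Ercc6l2 is the lowest point against wild type in both panels.

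Other genes of the same pathways also gave no calls. A further list of 126 repair, signalling, topoisomerase and p53 target genes had 118 genes tested and 0 past the edgeR test in each comparison. Before adjustment, edgeR gave p under 0.05 to 3 of the 118 for Cdk5i against scrambled peptide, 6 when scrambled peptide was set against wild type, and 6 when Cdk5i was, against 5.33%, 10.1% and 11.0% of all genes tested. Their median log2 fold changes were -0.03, 0.02 and -0.04.

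Among other mismatch repair genes, Msh3, which recognises larger loops, measured 57.9, 53.3 and 58.4 CPM with Cdk5i, 64.2, 62.5 and 64.3 CPM with the scrambled peptide and 62.7, 61.3 and 60.2 CPM in wild type. Its Cdk5i libraries lay below all 6 others, with a log2 fold change of -0.17 against scrambled peptide (interval -0.30 to -0.05, edgeR adjusted p = 0.819). Mlh3, a MutL homologue, measured 19.8, 19.0 and 19.9 CPM with Cdk5i, 17.2, 17.7 and 17.5 CPM with the scrambled peptide and 19.7, 21.8 and 21.5 CPM in wild type. Its scrambled-peptide libraries lay below all others, at a log2 fold change of -0.27 against wild type (interval -0.43 to -0.10, edgeR adjusted p = 0.307).

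Polq, the polymerase of a back-up end-joining route, measured 5.85, 6.36 and 7.22 CPM with Cdk5i, 6.32, 5.44 and 7.69 CPM with the scrambled peptide and 8.16, 8.24 and 8.90 CPM in wild type. Its 6 P301S libraries lay below the wild-type libraries, with a log2 fold change of -0.38 in each comparison with wild type (edgeR adjusted p = 0.360 for Cdk5i and 0.402 for scrambled peptide). Tipin, a replication fork protein, had -0.45 for Cdk5i against wild type (edgeR adjusted p = 0.346). The end-resection factor Rbbp8 had -0.25, and the nuclease Mus81 and the 53BP1 partner Mdc1 had 0.31 and 0.28 in that comparison, without passing (edgeR adjusted p = 0.430, 0.421 and 0.414). For scrambled peptide against wild type, the Fanconi genes Fancl and Fance had -0.24 and 0.47 (edgeR adjusted p = 0.448 and 0.358).

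Of 22 p53 target genes 18 were tested. For scrambled peptide against wild type 13 of the 18 had a positive log2 fold change, with a median of 0.12 and a range of -0.18 to 0.63. Over all genes, 8302 of 16046 were positive there. With Cdk5i 11 of the 18 were above wild type, with a median of 0.09 and a range of -0.35 to 0.56, against 7828 of all 16046 genes. Before adjustment, edgeR gave p under 0.05 to 1 of the 18 in each of these comparisons, and to 10.1% and 11.0% of all genes. Aen, a nuclease gene switched on by p53, measured 4.69, 5.41 and 5.73 CPM with Cdk5i, 5.28, 5.14 and 5.28 CPM with the scrambled peptide and 3.27, 3.32 and 4.13 CPM in wild type. All 6 P301S libraries lay above the wild-type libraries. Its log2 fold change was 0.56 for Cdk5i against wild type (edgeR adjusted p = 0.221) and 0.55 for scrambled peptide against wild type (edgeR adjusted p = 0.285), and it passed neither test.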

How the data were processed

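Total RNA of sorted NeuN+ nuclei was extracted with a kit for fixed tissue and made into stranded, randomly primed libraries, per the labels' protocols, and sequenced as read pairs of 40 bases per end, per the labels. The authors deposited 1 table of raw counts (read pairs per gene) for each library, made by featureCounts 2.0.0 with whole genes as features and reversed strand on Ensembl annotation 102, per the file headers. STAR 2.7.9a, DESeq2 1.36.0, Subread 2.0.0 and the build GRCm38 are named in the submitters' processing notes. Because introns are counted, levels include unspliced RNA, and read pairs shared by genes on the same strand may be missing. Near-identical copies elsewhere can share reads.

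The analysis used edgeR 4.0.16 (R 4.3.3) with 16046 genes kept by filterByExpr, TMM factors, and one robust quasi-likelihood model of 3 group means on 9 libraries (6 residual degrees of freedom), with Benjamini-Hochberg adjustment and a threshold of 0.05. CPM use TMM-scaled sizes. Groups came from the sample titles. Within groups no pair of libraries matched to within counting error (chi-square 8.19 to 24.3 per gene). Members were placed in pathways and the other genes listed with earlier results of these data known. Members given in full passed the test, had an unadjusted p under 0.05, had groups without overlap and a log2 fold change of at least 0.3 in size, or were the highest of their pathway per kilobase; the rest named here were chosen after their values were seen. On simulated data with 200 changed genes among 16046, 43.3% of genes changed by 0.5 and 72% of those changed by 1 on the log2 scale were recovered for Cdk5i against wild type. For Cdk5i against scrambled peptide these shares were 38.7% and 68%, and for scrambled peptide against wild type 39.3% and 74.7%. Unchanged genes made up 6.4%, 7% and 6% of the simulated calls in the same order. The planted changes reached 2 in size and were drawn from all genes tested. The real comparisons called only 12, 2 and 13 genes. Adjustment is stricter with so few changes, so these shares may overstate what could be recovered here. The alternatives were DESeq2 1.42.0, limma-voom (limma 3.58.1), DESeq2 size factors, other filters, only the groups compared, a replicate block, non-robust dispersion and leaving out each library. The values of some listed genes are not reported here.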

Additional observations from a re-analysis of the deposited data

How the results depend on the processing

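No member passed for Cdk5i against scrambled peptide in any of the 14 alternatives. For Cdk5i against wild type the count of 1 member, Ercc6l2, was kept with DESeq2 and with no low-count filter. It was 0 with DESeq2 size factors in edgeR (edgeR adjusted p of Ercc6l2 0.0648), a filter of 50 summed counts (0.0605), limma-voom with sample weights (0.0774), non-robust dispersion (0.0836), only the groups compared (0.124) and the replicate block (0.158), and 0 to 0 without each library in turn. The cause was not tested. For scrambled peptide against wild type the count of 0 became 1, Ercc6l2, with DESeq2 (DESeq2 adjusted p = 0.00993) and with no low-count filter (edgeR adjusted p = 0.0179). The average of both P301S groups against wild type also called Ercc6l2 alone among the members. That is a different comparison, which includes the Cdk5i libraries and was chosen after the data were seen. The members' median log2 fold change stayed within -0.04 to 0.03 in all alternatives. For the 12 other members given in full, 0 of 504 fits had an adjusted p under 0.05 (lowest 0.328). With the replicate number as a block the members called were 0, 0 and 0. Libraries with the same number correlated at -0.308 to 0.171, so the numbers do not pair them and the block result describes a shared number only. Members under about 400 counts in all, such as Chek2, Ogg1 and Brca1, are limited by depth.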
